A study of Penicillium oxalicum with 9 samples.

Results

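The genes described here are those whose transcripts were lower in the *P. oxalicum* deletion mutant Δ*rsrB* than in the parental strain Δ*ku70*, while their mean in the deletion mutant Δ*rsrA* stayed near that of Δ*ku70*. They number 92 of the 9721 genes listed, or 0.946%. Members were selected on the measured values of all 9 libraries, expressed as log2(FPKM + 1), where FPKM is fragments per kilobase of transcript, scaled to library size. For each gene, the mean of Δ*ku70* was subtracted from the mean of Δ*rsrB* and from the mean of Δ*rsrA*. A member had a Δ*rsrB* difference of -0.8 or less, a Δ*rsrA* difference under 0.5 in size, 3 Δ*rsrB* values under all 3 Δ*ku70* values, and a range over the 3 Δ*ku70* values of at most 1.5. The deleted gene *rsrB* was left out.

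Δ*rsrB* lacks POX08340, listed here as *rsrB*, Δ*rsrA* lacks POX01907, listed as *rsrA*, and all 3 strains, the parental strain included, carry a deletion of *ku70*. Each strain had 3 mycelium libraries, described in the paper as biological replicates. The labels number them without naming the cultures or transformants they came from, so the p-values below measure the spread between these libraries. Spores from plates kept at 28 °C for 4 days were grown in glucose medium for 24 h, and the mycelia were collected 24 h after transfer to inducing medium. The carbon source of that medium is commercial corn starch in the paper, raw starch in a protocol of the labels and Avicel, a cellulose, in their treatment field. Both mutants were compared with the same 3 Δ*ku70* libraries, so the 2 comparisons share their control.

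*P. oxalicum* is a filamentous fungus that secretes enzymes which break down starch and plant cell walls, and it turns many of their genes up when glucose gives way to a polymer. RsrB has a Gal4-like zinc finger, a DNA-binding domain typical of fungal transcription factors (TFs), and RsrA is a TF with SANT-like domains. Ku70 serves the joining of broken DNA ends, and fungal strains without it are commonly used because introduced DNA then integrates mostly at the intended locus. The files do not pair the identifiers of the members with gene names, and 0 of the 9721 identifiers were found in the reference table used here. The members are therefore described by their values and identifier numbers, and their functions, sequences and gene lists were not analysed here.

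The deleted genes matched the labels. POX08340 was listed at 0 in all 3 Δ*rsrB* libraries, against 8.26, 8.01 and 7.28 FPKM in Δ*rsrA* and 30.62, 35.67 and 30.61 FPKM in Δ*ku70*. The *rsrB* transcript in Δ*rsrA* thus stood at 24.3% of its Δ*ku70* level, while the 92 members stood at a median of 92.3% there. The limit on the Δ*rsrA* difference held the members near their Δ*ku70* level, so nothing is read from setting these figures side by side. POX01907 was at 24.23, 20.41 and 19.88 FPKM in Δ*rsrB*, 0.01, 0.01 and 0.04 FPKM in Δ*rsrA*, and 22.87, 17.08 and 16.52 FPKM in Δ*ku70*.

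One library stood apart. Replicate 1 of Δ*ku70* had Pearson correlations across genes of 0.915 and 0.906 with replicates 2 and 3 of its strain, against 0.984 between replicates 2 and 3 and 0.977 to 0.994 within the mutants. Without it, 71 of the 92 members still met all limits, 74 kept a Δ*rsrB* difference of -0.8 or less and 87 kept a Δ*rsrA* difference under 0.5 in size. The same limits applied to the 8 remaining libraries took 151 genes, of which these 71 were 47.0%. The 21 members that no longer met them had a median Δ*rsrB* difference of -0.84, against -1.07 over all 92. The part of this library in the selection was not tested beyond these counts.

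With the deleted gene left out, 746 genes had a Δ*rsrB* difference of -0.8 or less, of which 569 had no overlap with Δ*ku70* and 412 also met the limit on the Δ*ku70* range. In Δ*rsrA*, 293 of these 412 differed from Δ*ku70* by -0.5 or less and 27 by 0.5 or more, which left the 92 members, or 22.3%. The 293 were 71.1% of the 412, beside 38.1% of the 8597 genes with a mean of at least 1 FPKM over the Δ*rsrB* and Δ*ku70* libraries that had such a Δ*rsrA* difference. After scaling by the median of ratios, an alternative added after seeing the data, the figures for the same genes were 250 of 412 (60.7%) and 23.8%. Both differences are taken from the same Δ*ku70* libraries, so nothing is read from these shares. On either side of the limits, the closest Δ*rsrB* differences were -0.801 and -0.798, the closest Δ*rsrA* differences were 0.481 and 0.509 above and -0.475 and -0.501 below, and the closest Δ*ku70* ranges were 1.46 and 1.57.

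**Figure D1:**
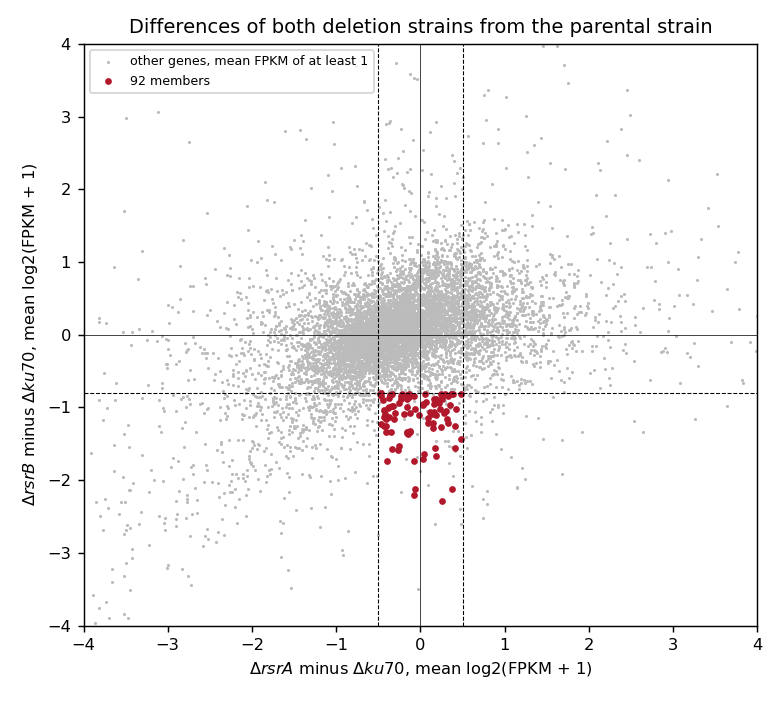
Each point is a gene, with its mean log2(FPKM + 1) in Δ*rsrA* minus Δ*ku70* on the horizontal axis and in Δ*rsrB* minus Δ*ku70* on the vertical axis. Red points are the 92 members, grey points other genes whose mean reached 1 FPKM, dashed lines the limits of -0.8 and 0.5 used to choose members, and genes beyond 4 on either axis are not drawn. The members fill the box under -0.8 in Δ*rsrB* and within 0.5 of 0 in Δ*rsrA*, reach -2.28, and lie beside a larger group of genes low in both mutants.

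Over the 92 members, the Δ*rsrB* difference had a median of -1.07 and ran from -2.28 to -0.80, against a median of 0.04 over the 8597 genes tested, those whose mean over the 6 libraries compared reached 1 FPKM. In FPKM, a median of 44.6% of the Δ*ku70* level was left in Δ*rsrB*, with 2.67% as the lowest and 56.6% as the highest. Less than 50% was left in 70 members, less than 33% in 22 and less than 25% in 7. The median member had a mean of 14.4 FPKM in Δ*rsrB*, 33.9 FPKM in Δ*rsrA* and 34.1 FPKM in Δ*ku70*. These differences chose the members and carry no test.

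The fall was moderate for most members and large for a few. The difference was -2 or less in 4 members, between -2 and -1 in 51, and above -1 in 37. Ordered by it, the leading 23 members had a median of 31.6% of Δ*ku70* left, the next 23 had 42.1%, the 23 after those had 47.0% and the last 23 had 52.9%. Their median Δ*rsrA* differences were -0.12, 0.09, 0.03 and -0.14 in that order, with no trend along the ranking. The median Δ*ku70* level of these groups was 49.1, 38.6, 26.6 and 19.6 FPKM. The order rests on log2(FPKM + 1), whose added 1 shrinks the falls of weak genes, so nothing is read from these levels.

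**Figure D2:**
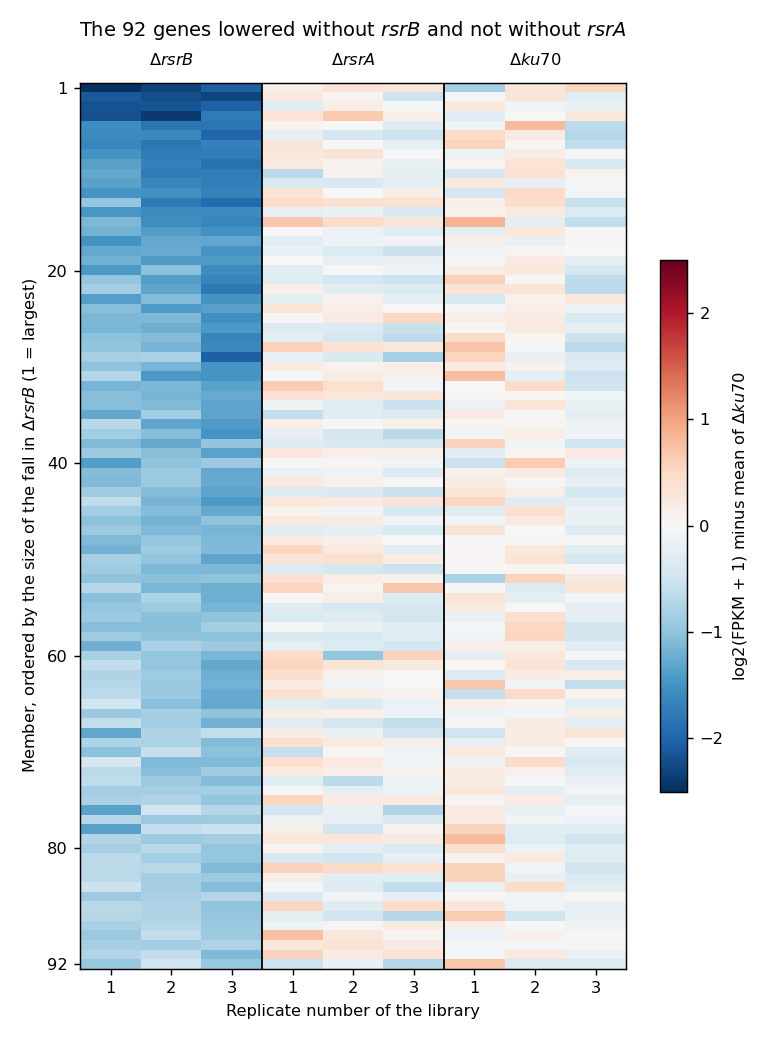
Rows are the 92 members, ordered from the largest to the smallest fall in Δ*rsrB*, and columns are the 9 libraries by strain and replicate. Colour gives log2(FPKM + 1) minus the Δ*ku70* mean of the gene, blue for lower and red for higher, with the scale ending at 2.5 either way. The 3 Δ*rsrB* columns are blue in nearly every row, with medians of -0.97, -1.06 and -1.26, while the Δ*rsrA* and Δ*ku70* columns are pale and mixed.

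The gap between the closest single values of the strains cannot be wider than that between their means, and its size is given here. The lowest Δ*ku70* value was a median of 1.56 times the highest Δ*rsrB* value, was at least 2 times as high in 18 members and was less than 1.2 times as high in 11. By limma, a linear model with the spread moderated across genes and Benjamini-Hochberg adjustment over all 8597 genes tested, 192 genes or 2.23% were called lower in Δ*rsrB* than in Δ*ku70* at an adjusted p under 0.05. Of the 91 members tested, 44 were called lower and 89 had an unadjusted p under 0.05, beside 2085 of the 8597 genes in either direction. The rule used this contrast, so nothing is read from these counts. Leaving out 1 library at a time gave 4 to 59 members, 59 of them when Δ*ku70* replicate 1 was dropped and 10 when replicate 2 of that strain was. Dropping a Δ*rsrB* library left 11 for replicate 1, 4 for replicate 2 and 4 for replicate 3. The count over all genes moved likewise. It was 556 of 8565 and 54 of 8580 without those Δ*ku70* libraries, and 50 of 8611, 27 of 8601 and 34 of 8600 without the Δ*rsrB* libraries. A part of single libraries particular to the members was not tested.

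The largest fall in log2(FPKM + 1) was that of POX06312. It had 129.66, 144.49 and 176.54 FPKM in Δ*rsrB*, against 802.02, 920.70 and 888.27 FPKM in Δ*rsrA* and 408.09, 893.58 and 1054 FPKM in Δ*ku70*. Every Δ*rsrB* value was below every value of the other strains, and the low Δ*ku70* value was that of replicate 1. Its mean was 150 ± 24.0 FPKM in Δ*rsrB*, 870 ± 61.3 FPKM in Δ*rsrA* and 785 ± 336 FPKM in Δ*ku70* (SD, n = 3 each), so 19.1% of the parental level was left in Δ*rsrB*. The Δ*rsrB* difference of -2.28 became -2.70 without Δ*ku70* replicate 1, and the Δ*rsrA* difference of 0.26 became -0.16.

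POX07584 came next, with a difference of -2.21. It was at 83.17, 76.41 and 72.32 FPKM in Δ*rsrB*, 428.65, 373.27 and 250.34 FPKM in Δ*rsrA*, and 354.69, 445.39 and 294.76 FPKM in Δ*ku70*. The Δ*rsrA* values overlapped those of Δ*ku70* and reached lower, and the lowest value outside Δ*rsrB* was 3.01 times the highest within it. Its difference in Δ*rsrA* was -0.07, and without Δ*ku70* replicate 1 the Δ*rsrB* difference stayed at -2.22.

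The members highest in FPKM were POX02286 and POX08242, which also differed most in FPKM between Δ*rsrB* and Δ*rsrA*. POX02286 had 581.26, 510.44 and 553.36 FPKM in Δ*rsrB*, against 2226, 1817 and 1518 FPKM in Δ*rsrA* and 2650, 1859 and 1171 FPKM in Δ*ku70*. In the Δ*rsrB* libraries it was nearly level, with an SD of 35.7 FPKM, while the Δ*ku70* libraries spread with an SD of 740 FPKM. POX08242 had 927.37, 1043 and 828.72 FPKM in Δ*rsrB*, against 2350, 2172 and 2032 FPKM in Δ*rsrA* and 2256, 2023 and 1714 FPKM in Δ*ku70*. The Δ*rsrB* differences of these genes were -1.71 and -1.09, and their Δ*rsrA* differences were 0.03 and 0.14.

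These 2 genes made up much of the members' transcripts. They held 36.6% of the summed mean FPKM of the members in Δ*rsrB*, 40.1% in Δ*rsrA* and 38.3% in Δ*ku70*. The 92 members together summed to 4314, 4095 and 3721 FPKM in Δ*rsrB*, 10979, 10088 and 9148 FPKM in Δ*rsrA*, and 11110, 10871 and 8531 FPKM in Δ*ku70*. Those sums were 0.343% to 0.415% of all FPKM in the Δ*rsrB* libraries, 0.916% to 1.04% in the Δ*rsrA* libraries and 0.814% to 1.17% in the Δ*ku70* libraries.

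**Figure D3:**
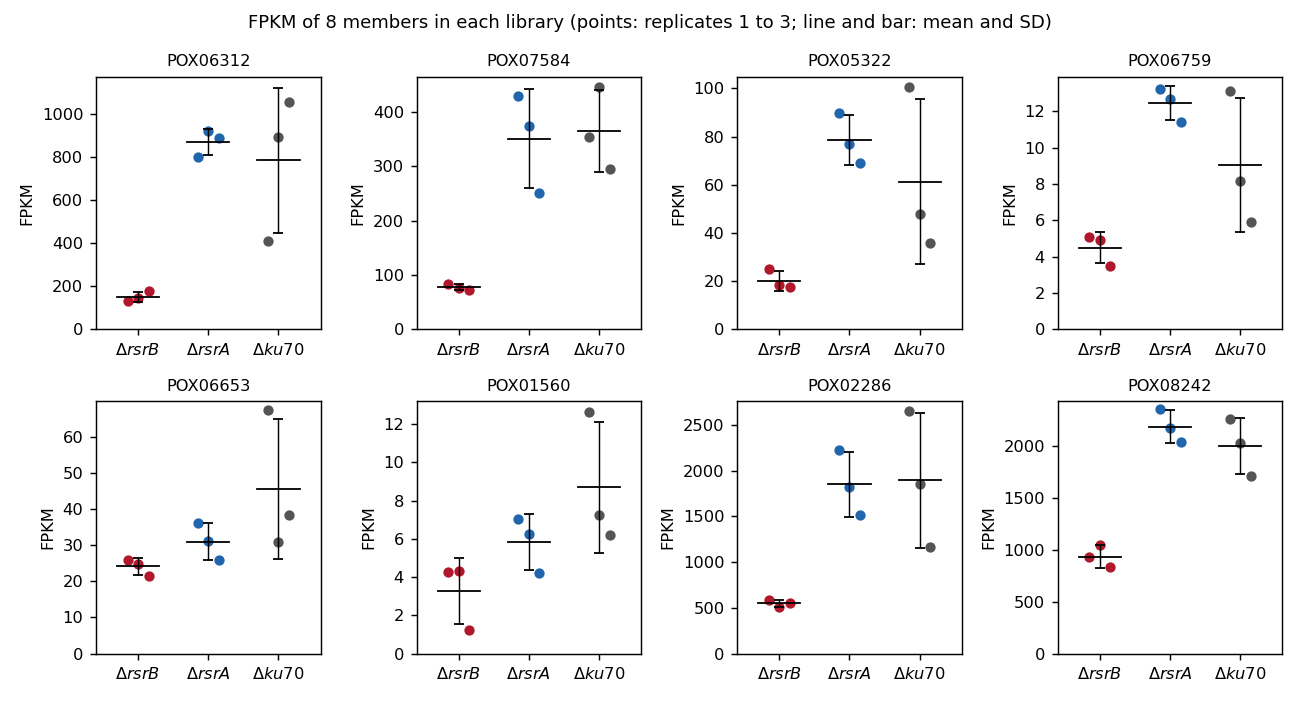
FPKM of 8 members in each library, with strains along the horizontal axis and a linear vertical axis from 0 in each panel. Points are replicates 1 to 3 from left to right, the line is the mean and the bar the SD (n = 3). In POX06312, POX07584, POX02286 and POX08242 the Δ*rsrB* points lie far below both other strains, while in POX01560 a Δ*rsrA* point lies among those of Δ*rsrB*.

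Members in Δ*ku70* ran from 1.29 to 1998 FPKM, and their levels spread much like those of other genes. Means of 1 to 10 FPKM were found in 20 members (21.7%, against 21.1% of all genes tested), 10 to 100 in 55 (59.8% against 58.9%), 100 to 1000 in 15 (16.3% against 17.3%) and over 1000 in 2 (2.17% against 1.78%). The median Δ*rsrB* difference was -0.98, -1.09 and -1.08 in the first 3 of these classes. The added 1 in log2(FPKM + 1) shrinks differences of weak genes, and in plain FPKM the weakest class kept a median of 35.8% of its Δ*ku70* level in Δ*rsrB*, against 44.9% and 46.5% in the next classes.

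A few weak members were close to silent in Δ*rsrB*. The mean there was under 1 FPKM in 7 members, whose Δ*ku70* means were 1.29 to 2.43 FPKM. POX09805 was at 0.19, 0 and 0 FPKM in Δ*rsrB*, 3.03, 3.21 and 2.24 FPKM in Δ*rsrA*, and 2.05, 2.81 and 2.25 FPKM in Δ*ku70*. POX09818 was at 0.37, 0 and 0 FPKM in Δ*rsrB*, 1.11, 2.58 and 1.82 FPKM in Δ*rsrA*, and 1.45, 3.29 and 2.56 FPKM in Δ*ku70*. These 2 were the only members listed at 0 in any library, and they were chosen for mention after their values were seen.

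The steps in these values show how few fragments lay behind them. The values of POX09805 above 0 were near 1, 11, 12, 15, 16 and 17 times 0.186 to 0.190 FPKM, and those of POX09818 near 1, 3, 4, 5, 7 and 9 times 0.363 to 0.370 FPKM. If a step was 1 fragment, Δ*rsrB* replicate 1 held 1 fragment of each. The files give no counts, so the depth is unknown and no limit of detection is given. POX09605, also named after its values were seen, was at 0.06, 0.03 and 0.06 FPKM in Δ*rsrB*, 1.81, 1.44 and 1.28 FPKM in Δ*rsrA*, and 0.24, 2.15 and 1.49 FPKM in Δ*ku70*, where replicate 1 was again the odd library.

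In Δ*rsrA*, the mean log2 value of the members was above that of Δ*ku70* in 42 and below it in 50, with a median difference of -0.07. The median over the 8550 genes tested was -0.29, and a lowering of many genes cannot be told apart here from a shift of the scale. Of the 92 members, 68 lay above -0.31, the median over the 8597 genes tested for Δ*rsrB*. The limit of 0.5 on the size of the Δ*rsrA* difference shaped where the members lie. Nothing is therefore read from their place beside all genes, here or in the scalings that follow. Scaling by the median of ratios moved the median of all genes to 0.02 and that of the members to 0.23, with 67 members above 0, and quantile normalization gave 0.01 and 0.22. The sign of the members' Δ*rsrA* difference thus depended on the scaling, and 69 of the 92 still differed by under 0.5 in size with the median of ratios. The Δ*rsrB* differences moved little, to a median of -1.10 and -1.12 in these scalings.

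**Figure D4:**
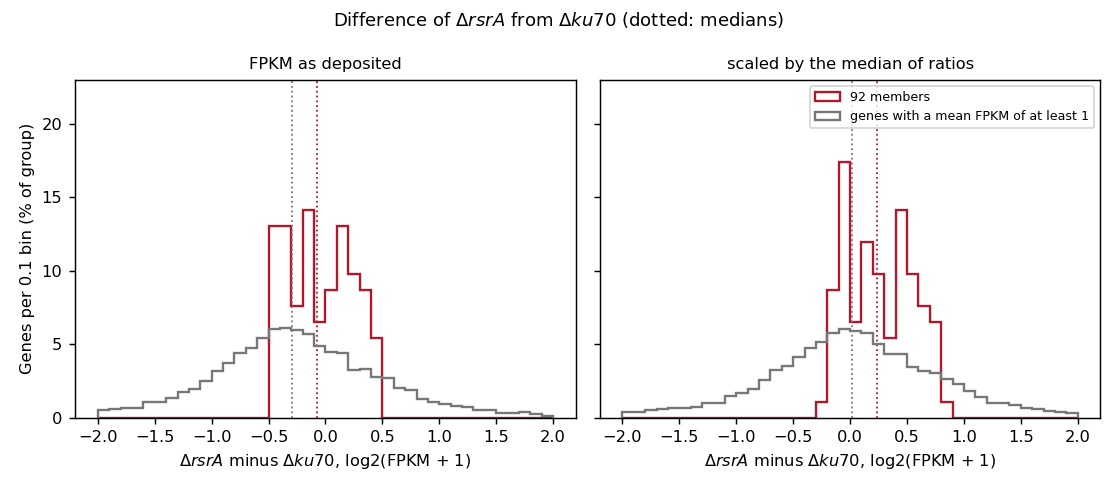
Share of genes in bins of 0.1 against the Δ*rsrA* minus Δ*ku70* difference in log2(FPKM + 1), for the 92 members in red and genes whose mean reached 1 FPKM in grey, with medians dotted. On the left, as deposited, the members' median of -0.07 lies above that of the other curve, and on the right, after scaling by the median of ratios, the grey curve is centred near 0 and the members' median is 0.23. The sharp edges of the red curve on the left are the limits of 0.5 that chose the members.

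limma called 2477 genes lower in Δ*rsrA* than in Δ*ku70* (29.0%) and 833 higher (9.74%), which became 1251 and 1526 with the median of ratios. Among the 92 members, 1 was called lower and 0 higher, and 9 had an unadjusted p under 0.05, beside 4321 of the 8550 genes tested. A limit on the size of this difference chose the members, so these counts say nothing about them. Scaled by the median of ratios, 0 were called lower and 8 higher, while dropping a Δ*ku70* library gave 1 lower and 7 higher for replicate 1, and 7 lower and 0 higher for replicate 3. Over all genes, 3432 were called lower and 1121 higher without replicate 1, and 2128 and 925 without replicate 3. The member called, POX00596, had 43.38, 36.80 and 36.64 FPKM in Δ*rsrB*, 64.45, 59.53 and 55.01 FPKM in Δ*rsrA*, and 78.16, 84.15 and 80.15 FPKM in Δ*ku70*, an intermediate level in Δ*rsrA* as deposited. Its Δ*rsrA* difference of -0.43 became -0.11 with the median of ratios.

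Nor were the members uniformly level in Δ*rsrA*. All 3 Δ*rsrA* values were below all Δ*ku70* values in 9 members (9.78%, against 41.5% of all genes tested) and above them in 3 (3.26%, against 15.0%). The limit on the Δ*rsrA* difference holds these shares down, so nothing is read from them. In 27 the Δ*rsrA* values lay within the Δ*ku70* range, and in the other 53 the strains overlapped in part. The 9 members below Δ*ku70* had a median of 74.1% of its FPKM in Δ*rsrA* and 44.6% in Δ*rsrB*, in the values as deposited. With the median of ratios, their Δ*rsrA* differences were -0.149 to -0.009, so their fall in Δ*rsrA* depended on the scaling. The 3 above Δ*ku70*, POX00146, POX09627 and POX06699, had a median of 125% in Δ*rsrA* and 53.5% in Δ*rsrB*, and were named after their values were seen.

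The extremes on the Δ*rsrA* side show how much the Δ*ku70* libraries weigh. POX05322, with the highest Δ*rsrA* difference (0.48), had 25.01, 18.22 and 17.34 FPKM in Δ*rsrB*, 89.71, 76.81 and 69.11 FPKM in Δ*rsrA*, and 100.46, 47.68 and 35.82 FPKM in Δ*ku70*. POX06759, also at 0.48, had 5.08, 4.94 and 3.49 FPKM in Δ*rsrB*, 13.26, 12.69 and 11.44 FPKM in Δ*rsrA*, and 13.12, 8.18 and 5.90 FPKM in Δ*ku70*. In both, Δ*ku70* replicate 1 was the highest of its strain and the Δ*rsrA* libraries were tight. Once it was dropped, their Δ*rsrA* differences were 0.90 and 0.76, both over the limit of 0.5. Their Δ*rsrB* differences were then -1.02, still within the limit, in POX05322 and -0.55, outside it, in POX06759.

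At the other end, POX06653 had 25.87, 24.90 and 21.58 FPKM in Δ*rsrB*, 36.03, 31.07 and 25.89 FPKM in Δ*rsrA*, and 67.46, 30.80 and 38.38 FPKM in Δ*ku70*. The highest Δ*rsrB* value and the lowest Δ*rsrA* value were nearly equal. POX01560 had 4.25, 4.30 and 1.26 FPKM in Δ*rsrB*, 7.06, 6.27 and 4.21 FPKM in Δ*rsrA*, and 12.62, 7.23 and 6.23 FPKM in Δ*ku70*. Both had a Δ*rsrA* difference of -0.47, which was -0.16 and -0.20 without Δ*ku70* replicate 1. Their Δ*rsrB* differences of -0.82 and -1.23 became -0.50 and -0.96 without it.

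Set directly against Δ*rsrA*, the members in Δ*rsrB* had a median difference of -1.11, from -2.54 in POX06312 to -0.33. All 3 Δ*rsrB* values lay below all 3 Δ*rsrA* values in 84 of the 92 (91.3%, against 17.0% of all genes tested). limma called 1294 genes lower in Δ*rsrB* than in Δ*rsrA* (15.2%) and 3829 higher, or 2217 and 2010 with the median of ratios, and among the 90 members tested 83 were lower. The rule fixed both differences that make up this one, so nothing more is read from the count. The 8 members that overlapped with Δ*rsrA* had a median of 75.3% of the Δ*ku70* level in Δ*rsrA* and 47.6% in Δ*rsrB*.

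The median spread between replicates was near that of all genes tested in Δ*ku70* and somewhat higher in both mutants. The median SD of log2(FPKM + 1) was 0.199 in Δ*rsrB*, 0.160 in Δ*rsrA* and 0.294 in Δ*ku70*, against 0.173, 0.137 and 0.298 over all genes tested. The limits on the Δ*ku70* range and on overlap act on this spread, so nothing is read from the likeness. The members were not evenly spread over the replicates. Replicate 3 was the lowest of its strain in 62 members in Δ*rsrB* (67.4%, against 45.3% of all genes tested), in 60 in Δ*rsrA* (65.2% against 46.4%) and in 59 in Δ*ku70* (64.1% against 24.8%). The median over members of the difference from the Δ*ku70* mean was -0.97, -1.06 and -1.26 in Δ*rsrB* replicates 1, 2 and 3, 0.08, -0.002 and -0.15 in Δ*rsrA*, and 0.06, 0.11 and -0.23 in Δ*ku70*. The limits that chose the members fixed the order of the strains in these medians, and the part of the replicates in the members' values was not tested.

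Some members carry neighbouring identifier numbers, although whether such numbers are neighbours on a chromosome was not checked here. There were 4 pairs of consecutive identifiers, holding 8 members, and no run of 3, and 17 members had another within 5 numbers. One pair was POX07583 and POX07584. POX07583 was a weak gene at 1.44, 2.56 and 2.91 FPKM in Δ*rsrB*, 5.82, 4.35 and 3.22 FPKM in Δ*rsrA*, and 3.22, 5.76 and 6.47 FPKM in Δ*ku70*. Of the 170 other genes listed directly beside a member, 28 (16.5%) had a Δ*rsrB* difference of -0.8 or less, against 747 of all 9721 genes (7.68%), the deleted *rsrB* included.

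The pair with the largest falls was POX09359 and POX09360, at -2.12 each, ranked 3 and 4 among the members. POX09359 had 4.66, 4.72 and 5.27 FPKM in Δ*rsrB*, 19.69, 27.53 and 23.63 FPKM in Δ*rsrA*, and 29.49, 22.83 and 21.84 FPKM in Δ*ku70*. POX09360 had 9.24, 7.94 and 12.75 FPKM in Δ*rsrB*, 57.29, 72.92 and 50.88 FPKM in Δ*rsrA*, and 37.97, 45.29 and 55.84 FPKM in Δ*ku70*. The Δ*rsrA* difference was -0.06 in one and 0.37 in the other, and in neither did Δ*rsrB* come near another strain.

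Genes on both sides of this pair fell further but were not members, and they are named because their values were seen. POX09361 averaged 112 FPKM in Δ*rsrB*, 1295 FPKM in Δ*rsrA* and 1863 FPKM in Δ*ku70*. Its Δ*rsrA* difference of -0.52, as deposited, put it just outside the limit, and its difference in other scalings is not given here. POX09358 averaged 647 FPKM in Δ*rsrB*, 4752 FPKM in Δ*rsrA* and 22127 FPKM in Δ*ku70*, with differences of -4.93 in Δ*rsrB* and -2.07 in Δ*rsrA*. POX09357 was lower in both mutants too, by -2.15 in Δ*rsrB* and -2.86 in Δ*rsrA*. The whole row of identifiers from POX09357 to POX09361 thus had Δ*rsrB* differences of -4.93 to -2.12, with Δ*rsrA* differences from -2.86 to 0.37.

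**Figure D5:**
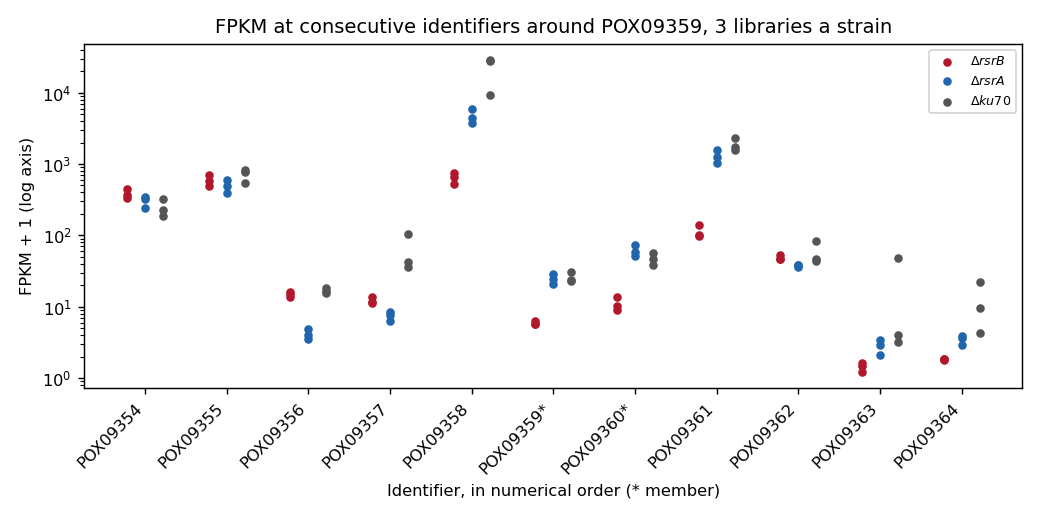
FPKM + 1 on a log axis for 11 genes with consecutive identifiers, in the order of their numbers, with 3 points for each strain (red Δ*rsrB*, blue Δ*rsrA*, grey Δ*ku70*) and members marked by an asterisk. At POX09359 and POX09360 the Δ*rsrA* points lie level with those of Δ*ku70* and the Δ*rsrB* points well below. At POX09358 the Δ*rsrA* points lie between the other strains, at POX09361 they overlap with Δ*ku70* and reach lower, and at POX09357 they are the lowest.

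Sets chosen with the same limits turned round are given for scale. Genes raised without *rsrB* and not without *rsrA* numbered 238, genes lowered by 0.8 or more in both mutants 243, and genes lowered without *rsrA* and not without *rsrB* 975. Their median Δ*ku70* levels were 16.9, 28.9 and 23.5 FPKM, beside 34.1 FPKM for the 92 members. These sets come from the same libraries and were not tested against each other. They were chosen in FPKM as deposited and not counted in other scalings. With the median of ratios, limma called 1251 genes lower in Δ*rsrA* than in Δ*ku70*, against 2477 as deposited, so the sizes of the sets are not compared.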

How the data were processed

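Poly(A) RNA was sequenced by the authors on a BGI platform, and the deposited FPKM values were used, 1 list of 9721 genes per library. The paper names BWA, Bowtie2, RSEM and NOISeq, and the submitters' processing notes name bcl2fastq and HISAT2. Strandedness, read filters and pairing of old with current identifiers are not given in the sources used here. FPKM is relative to the mapped total of a library, so a change in a few abundant genes moves all others. Total FPKM was 950456 to 1086112 per library. The files hold no counts, and the depth is unknown.

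The labels gave strains and replicate numbers. That POX08340 is *rsrB* was inferred from the labels and a supplementary figure. Members were found by the rule given above on log2(FPKM + 1). The members, rule and lists were chosen with earlier results of these data known. limma 3.58.1 (lmFit, eBayes with trend) in R 4.3.3 was run for each of 3 comparisons on genes whose mean over the 6 libraries involved reached 1 FPKM, with Benjamini-Hochberg adjustment, after a check on simulated data. The 2 members with the lowest Δ*rsrB* difference, the 2 with the highest and 2 with the lowest Δ*rsrA* difference, and the next 2 by FPKM difference between mutants were named, others only where stated. Replicates 1 and 3 deviated together with their own numbers between Δ*rsrB* and Δ*rsrA* (correlations 0.581 and 0.470), as a hint from the values only. Replicate 2, at 0.101 just over the limit of 0.1, went better with another number. Alternatives were a pseudocount of 0.1, TPM, median of ratios, quantile normalization, other limits and filters, a replicate block, array weights and leaving out each library. Gene lists planned by name could not be made. Python 3.11.15, pandas 2.3.3 and matplotlib 3.10.9 were used.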

Additional observations from a re-analysis of the deposited data

How the results depend on the processing

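The number of members, 92, became 196 and 55 with a limit on the Δ*rsrB* difference of -0.5 and -1, 46 and 147 with a Δ*rsrA* limit of 0.25 and 0.8, and 80 to 151 without 1 library at a time. It was 107 to 116 under TPM, median of ratios and quantile normalization, and 131 relative to the median gene, which kept 87, 68, 63 and 70 of the 92. The 44 members called lower in Δ*rsrB* against Δ*ku70* became 76 in 1 fit over all 9 libraries, 87 with array weights and 4 to 59 without 1 library. The 192 of all genes called lower became 575, 1833 and 27 to 556 in the same settings. With a replicate block, where same numbers did not all deviate together (correlations 0.051, -0.174 and 0.263), 13 members and 68 of all genes were called lower. For Δ*rsrA* against Δ*ku70* (1 called, in either direction), the count was 8 with the median of ratios, 9 with quantile normalization, 2 in 1 fit over all 9 libraries, 26 with array weights, 0 with the replicate block and 0 to 8 without 1 library. Over all genes, 2477 lower and 833 higher became 1251 and 1526 with the median of ratios, and 1088 and 1184 with quantile normalization. They became 2956 and 1049 in 1 fit, 3896 and 1719 with array weights, and 1648 and 578 with the block. Without 1 library, 1111 to 3432 were lower and 374 to 1121 higher. The 83 members lower in Δ*rsrB* than in Δ*rsrA* ranged from 73 to 92 over all settings, with 88 under the block, while all genes called lower ranged from 961 to 2217. The median Δ*rsrB* difference stayed between -1.19 and -1.004 without 1 library and between -1.15 and -1.10 under other scalings. The median Δ*rsrA* difference became 0.23 and 0.22 with the median of ratios and quantile normalization, by construction of scalings that centre all genes, and -0.16 to 0.00 without 1 library. The 8 members named by the rule kept a negative Δ*rsrB* difference in every scaling and without any library. The limit on overlap with Δ*ku70* fixed this sign when a library was left out, so nothing is read from it. The depth is unknown, and each strain has 3 libraries.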
